A study of Homo sapiens with 4 samples.

Results

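Within a single library of HCT116, a human colorectal cancer line, cells with much MT1G RNA were compared with cells in which none was counted. MT1G encodes metallothionein 1G, a small cysteine-rich protein that binds zinc and copper. The library is the one labelled DAC+SB, in which cells at passage 5 to 10 received 500 nM decitabine (DAC, an inhibitor of DNA methyltransferases) for 72 h and 500 nM SB939 (an inhibitor of histone deacetylases) for 18 h, with the medium renewed every 24 h. Cells with at least 5000 counts of genes and transposable elements (TE) were kept, 3279 of the 4327 cells of the library. MT1G-high cells had 5 or more MT1G counts and numbered 851 (26.0% of the cells kept), and MT1G-negative cells had 0 and numbered 1169 (35.7%). The remaining 1259 cells had 1 to 4 counts. The 2020 cells of both groups were part of 15289 in the series. The series also holds HCT116 cells given the solvent DMSO and the lung cancer line H1299 with DMSO and with DAC+SB, each as 1 library made with 5′ single-cell RNA sequencing.

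Metallothioneins buffer free zinc, bind copper and cadmium and take up reactive oxygen species. Most human metallothionein genes stand in a cluster on the long arm of chromosome 16. Their promoters carry metal response elements, short sites bound by the zinc-sensing transcription factor MTF1, and several members are known to be silenced by DNA methylation in tumours, MT1G among them. On GRCh38 (GENCODE v29) MT1G lies on the minus strand at chromosome 16, 56666731 to 56668065. The nearest gene of the family, MT1H, starts 1749 bases away and runs in the opposite direction, at 56669814 to 56671129 on the plus strand. The 16 members of the family list placed on this chromosome span 56565049 to 56684196.

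Promoter sequences are shown because the metallothionein genes turned out to have the highest ratios between the groups. RefSeq promoters (GRCh38.p14, from 250 bases before to 50 bases after the start) were matched by symbol for 5 of the genes described here, MT1B, MT1H, MT1X, MT2A and MT4. The core of the metal response element was searched as TGCACNC and TGCGCNC on both strands, and capitals mark the matches, which did not overlap. The windows are chr16:56669564-56669863 for MT1H, chr16:56608334-56608633 for MT2A and chr16:56682220-56682519 for MT1X, all on the plus strand.
MT1H: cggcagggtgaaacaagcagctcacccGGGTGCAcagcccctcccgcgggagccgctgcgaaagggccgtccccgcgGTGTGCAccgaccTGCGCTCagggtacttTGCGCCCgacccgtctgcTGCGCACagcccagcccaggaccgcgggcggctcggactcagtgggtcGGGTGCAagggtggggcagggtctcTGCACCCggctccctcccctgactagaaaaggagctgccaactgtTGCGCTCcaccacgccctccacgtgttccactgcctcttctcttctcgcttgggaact
MT2A: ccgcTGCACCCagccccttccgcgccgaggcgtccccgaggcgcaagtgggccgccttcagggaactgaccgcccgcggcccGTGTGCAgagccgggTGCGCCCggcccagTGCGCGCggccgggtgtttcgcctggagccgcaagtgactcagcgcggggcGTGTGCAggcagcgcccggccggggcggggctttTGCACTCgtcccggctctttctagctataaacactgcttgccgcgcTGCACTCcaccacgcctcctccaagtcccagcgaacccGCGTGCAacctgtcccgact
MT1X: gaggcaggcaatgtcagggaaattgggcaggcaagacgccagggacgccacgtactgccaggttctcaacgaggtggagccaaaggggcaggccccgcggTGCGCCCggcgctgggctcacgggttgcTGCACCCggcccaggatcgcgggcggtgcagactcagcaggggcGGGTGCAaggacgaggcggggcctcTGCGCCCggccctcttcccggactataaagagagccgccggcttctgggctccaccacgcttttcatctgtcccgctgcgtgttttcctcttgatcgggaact
The windows of MT1H and MT2A each held 8 matches and that of MT1X held 4. Of the 35116 promoters in the table, 29.6% held at least 1 match, 0.601% at least 4 and 0.0199% at least 8. TGCACNC occurred in 12.1% of promoters and TGCGCNC in 20%. MT1B and MT4 held 3 matches each, a number reached by 2.3% of promoters. A match is only a run of letters and says nothing of binding.

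MT1G set the groups, so its own values describe them and support nothing. The 3279 cells held 15107 MT1G counts, and the MT1G-high cells held 83.3% of these. The MT1G level was 1222 CPM (counts per 1000000 counts of the group) in MT1G-high cells and 186 CPM in cells with 1 to 4 counts. The median MT1G count of MT1G-high cells was 9 and the highest was 241. At the edge of the rule, 171 cells had exactly 4 counts and 141 cells exactly 5. In this order their levels were 7784 and 7666 CPM for MT2A, another metallothionein, 1875 and 1749 for MT1E, 76 and 85.7 for MT1A, and 22.7 and 13.8 for MT1H (43 and 22 counts). The HCT116 DMSO library had 5 MT1G counts over its 3639 cells of at least 5000 counts, and 4 cells held them. No cell of either DMSO library reached 5 counts.

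The groups differed in depth. Summed counts were 10294361 in MT1G-high cells and 11284748 in MT1G-negative cells, with a median of 11555 and 9114 counts per cell. The share of MT1G-high cells was 15.6% (exact 95% interval 13.1 to 18.3) among cells of 5000 to 7500 counts and 41.7% (36.8 to 46.8) among cells of 15000 to 20000. A limit set in counts is easier to pass in a deeper cell. The HCT116 ratios below were also computed with every cell thinned to 5000 counts by a hypergeometric draw. In another computation MT1G-negative cells were weighted to the depths of MT1G-high cells. Both keep the groups set in unthinned cells, so neither changes which cells passed the limit. In an alternative, groups were set by MT1G in thinned cells, 748 cells with 3 or more counts and 1586 with 0. The median mitochondrial share was 15.7% in MT1G-high and 18.0% in MT1G-negative cells, and 7.4% against 17.0% of cells lay above 25%. In cells thinned to 5000 counts the median number of gene names was 1700 and 1645. H1299 markers, the other line in the study, summed to 367 CPM (355 to 379) in MT1G-high and 366 CPM (355 to 377) in MT1G-negative cells with all 10 of 10 counted, against 252 in HCT116 DMSO. H1299 itself had 3418 with DMSO and 1480 with DAC+SB. The 12 colon epithelial markers summed to 636 and 605 CPM in the 2 groups, with CEACAM5 at 0 in MT1G-high cells. That list was at 990 CPM in H1299 DAC+SB and so did not separate the treated lines. Of the barcodes of MT1G-high cells, 12 also occurred in another library, as did 24 of MT1G-negative cells.

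Both groups come from 1 library and cells are not replicates, so no test was made and no p-value computed. Intervals in brackets are exact 95% Poisson or conditional binomial intervals and cover counting error only. They leave out the variation from cell to cell. A gene was counted as higher or lower when its share of counts differed by at least 1.5-fold, among genes with at least 200 counts over both groups. A gene or TE family near that minimum can reach it through the group where it is higher, so the minimum favours a difference. MT1G itself was left out, also from the totals.

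The 2 groups were alike in most of what was measured. Of 7878 genes, 75 (0.952%) were higher and 59 (0.749%) were lower in MT1G-high cells, and the median log2 ratio was 0.03. A difference of 2-fold or more was seen in 8 higher and 7 lower genes. Of the 75 higher genes, 59 were past 1.5-fold after thinning and 72 after weighting by depth, and 11 had an interval that lay wholly beyond 1.5-fold. Of the 59 lower genes these numbers were 44, 34 and 13. With no cell above 20% of the counts, 56 higher and 21 lower genes were past 1.5-fold in all 3 computations. In 5 of the 59 lower and 0 of the 75 higher genes, 1 cell held over 20% of the counts. The counts of higher and lower genes were 45 and 30 in thinned cells, where fewer genes reach 200 counts, 121 and 56 with weighting by depth, and 50 and 79 with mitochondrial and ribosomal protein genes left out of the totals.

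**Figure D1:**
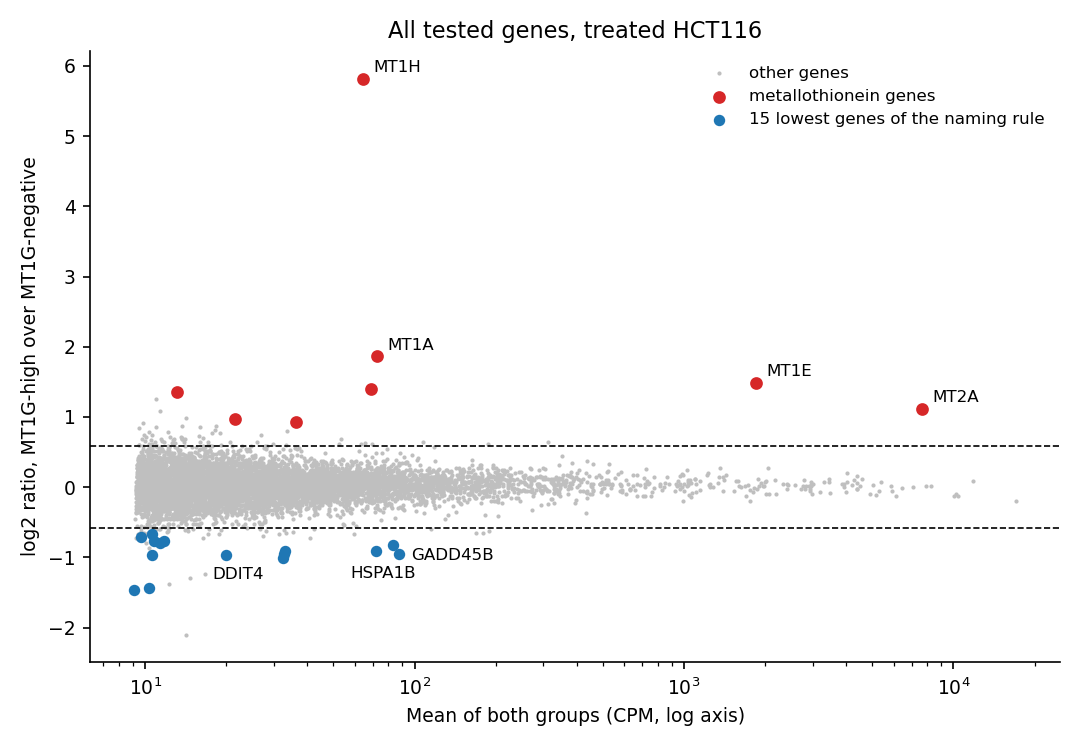
Log2 ratio of MT1G-high over MT1G-negative cells (y axis) against the mean level of both groups in CPM (x axis, log scale) for the 7878 tested genes of treated HCT116. Dashed lines mark 1.5-fold. The 8 tested metallothionein genes (red) lie above the upper line, with MT1H at 5.82, and the 15 lowest genes of the naming rule (blue) lie below the lower one.

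Metallothionein genes were the clearest group. All 8 members of the list that had 200 counts were at least 1.5-fold higher, against 0.952% of all genes, with a median log2 ratio of 1.38 (0.03 over all genes). MT1H reached 200 counts only through the MT1G-high cells (1291 and 25 counts), and MT1L had 194 and 83, so for these genes the minimum itself favours a difference. The 19 genes of the list summed to 13628 CPM in MT1G-high cells, 7492 in cells with 1 to 4 MT1G counts and 5896 in MT1G-negative cells, beside 5380 in HCT116 DMSO. The log2 ratio of the sums was 1.21 (1.20 to 1.22), 1.26 in thinned cells and 1.11 with weighting by depth. Of the other 11 members, 4 had no count in either group and 7 were below the minimum. Metallothionein genes are close copies of each other, and no source used here says how reads were split between them, so single members are less certain than the sum.

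MT2A, the member that most tissues express, was at 10444 CPM (10382 to 10507) in MT1G-high cells, 5934 in cells with 1 to 4 counts, 4797 CPM (4757 to 4837) in MT1G-negative cells and 3849 in HCT116 DMSO. Its log2 ratio was 1.12 (1.11 to 1.14). After thinning, 100% of MT1G-high and 96.7% of MT1G-negative cells had an MT2A count. MT1E was at 2724 CPM (2692 to 2756) in MT1G-high, 1345 in the middle and 969.6 CPM (952 to 988) in MT1G-negative cells, a log2 ratio of 1.49 (1.46 to 1.52). HCT116 DMSO cells were at 1487 CPM of MT1E, so MT1G-negative cells lay below them and MT1G-high cells above.

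MT1X was counted mostly under a name that joins it with an overlapping transcript. The joined name was at 3878 CPM (3840 to 3916) in MT1G-high, 1950 in the middle and 1502 CPM (1480 to 1525) in MT1G-negative cells, against 354 in HCT116 DMSO. Its log2 ratio was 1.37 (1.34 to 1.39), while the 459 counts under MT1X alone gave 0.97 (0.69 to 1.25). With joined names added the ratio of the family sum was 1.24.

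MT1A, MT1L and MT3 were near 0 without the drugs, while MT1F was not. MT1A was at 114, 62.4 and 31.3 CPM in the high, middle and negative cells and at 0.0479 in HCT116 DMSO, a log2 ratio of 1.87 (1.70 to 2.05). MT1F was at 99.8, 56.3 and 37.8 CPM against 31.4 with DMSO, a log2 ratio of 1.4 (1.23 to 1.57). MT1L, annotated as a transcribed pseudogene, was at 18.9, 12.8 and 7.36 CPM and had no count with DMSO, a log2 ratio of 1.36 (0.98 to 1.75). In each of these genes the cells with 1 to 4 MT1G counts lay between the others. MT3, the member known from brain, was at 47.4, 41.3 and 24.9 CPM and at 0.0319 with DMSO, a log2 ratio of 0.93 (0.71 to 1.14), and here the middle cells were close to the high ones. Below the minimum of 200 counts, MT1M had 70 counts in MT1G-high and 12 in MT1G-negative cells, MT1B had 63 and 33, and MT1DP had 111 and 61. MT1CP had 12 and 15, and MT4, MT1JP and MT1P1 had 6 or fewer counts over both groups. MT1HL1, MT1P3, MT1IP and MT1XP1 had none.

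MT1H, the neighbour of MT1G, was rare outside MT1G-high cells. It had 1291 counts or 126 CPM (119 to 133) in MT1G-high cells, 6.5 CPM in cells with 1 to 4 counts and 25 counts or 2.22 CPM (1.43 to 3.27) in MT1G-negative cells, with no count in HCT116 DMSO. The log2 ratio was 5.82 (5.26 to 6.46), or 56.7-fold, with 6.14 in thinned cells and 5.53 with weighting by depth. MT1H was counted in 280 cells, of which 209 were MT1G-high, 53 had 1 to 4 MT1G counts and 18 were MT1G-negative. All 37 cells with 10 or more MT1H counts were MT1G-high, with a median MT1G count of 44. The 10 cells with most MT1H held 32.4% of its counts.

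Levels were also followed along the MT1G count within the MT1G-high cells. From cells with 5 to 9 MT1G counts, through 10 to 19 and 20 to 49, to 50 or more, MT2A was at 8556, 10528, 13899 and 21019 CPM and MT1E at 2150, 2695, 3783 and 6372 CPM. MT1H was at 15.2, 49.2, 266 and 1798 CPM in the same order, and 10.9%, 27.0%, 53.2% and 75% of cells had an MT1H count. MT3 stayed at 47.1, 44.8, 54.7 and 36.0 CPM along these steps. The last step rests on 28 cells.

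**Figure D2:**
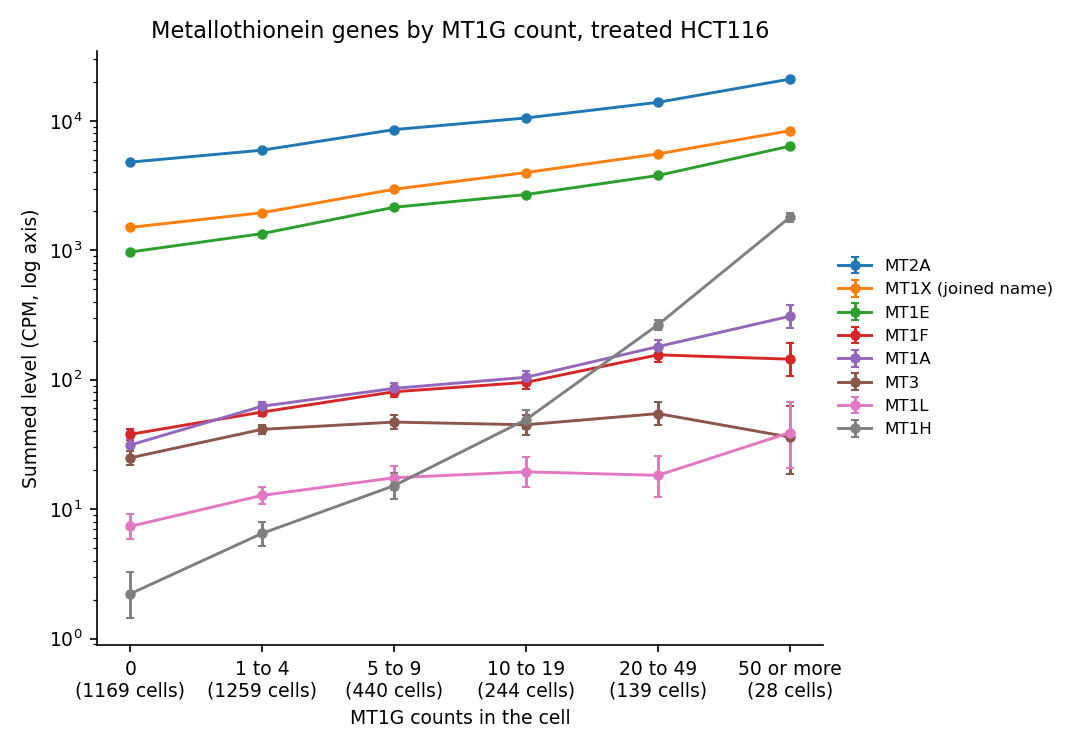
Summed level in CPM (y axis, log scale) of 8 metallothionein names in treated HCT116 cells grouped by their MT1G count (x axis, number of cells in brackets). Bars are exact 95% Poisson intervals of the counts. MT2A goes from 4797 to 21019 CPM and MT1H from 2.22 to 1798 CPM, while MT3 stays between 24.9 and 54.7 CPM.

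Per cell, the groups overlapped. The summed share of the list with the joined MT1X name had a median of 15206 CPM in MT1G-high cells (10th to 90th percentile 5499 to 33316) and 4560 CPM in MT1G-negative cells (1191 to 15061). The ratio also depended on depth. The log2 ratio of the family sum was 1.57 (1.53 to 1.60) in cells of 5000 to 7500 counts, 1.32 at 7500 to 10000, 1.23 at 10000 to 15000, 0.89 at 15000 to 20000 and 0.53 (0.47 to 0.59) above 20000, where 33 MT1G-high and 14 MT1G-negative cells remained. The level of MT1G-negative cells was 5221 CPM in the shallowest and 8551 CPM in the deepest stratum, and that of MT1G-high cells 15449 and 12361. The family sum was higher in MT1G-high cells in all 5 strata.

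**Figure D3:**
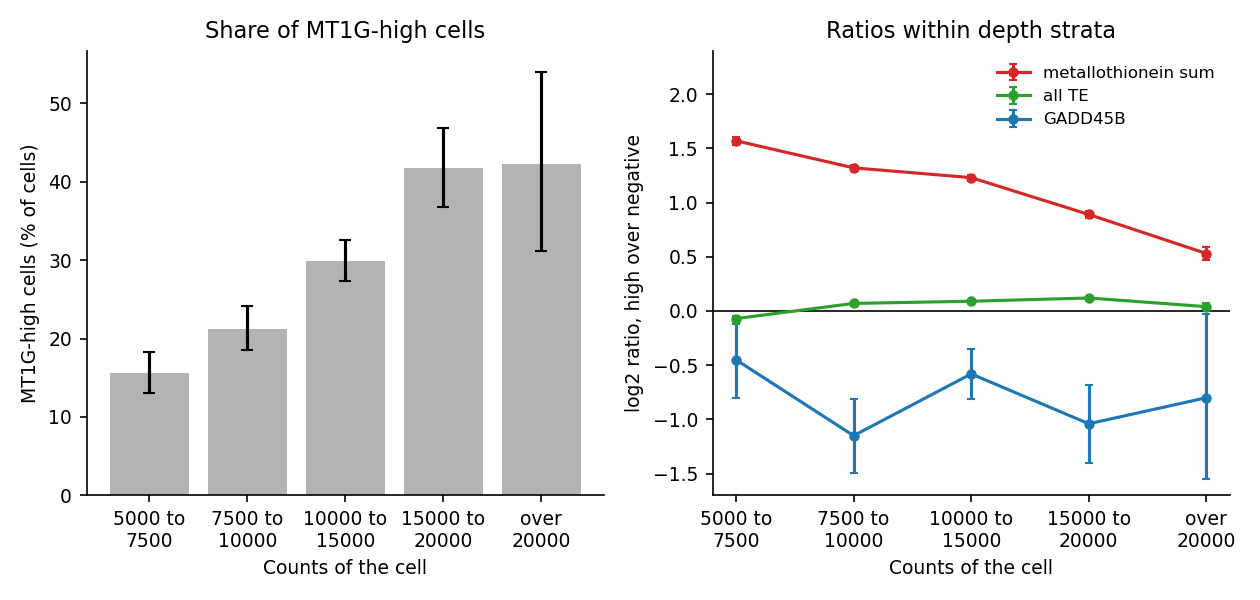
Left, share of MT1G-high cells among treated HCT116 cells in 5 strata of counts per cell, with exact 95% binomial intervals. Right, log2 ratio of MT1G-high over MT1G-negative cells within each stratum for the metallothionein sum (1.57 to 0.53), all TE (-0.07 to 0.12) and GADD45B (-1.15 to -0.45), with exact conditional 95% intervals.

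None of the 6 tested genes next to the cluster was past 1.5-fold, which is near the share over all genes (0.952% higher and 0.749% lower). Their median log2 ratio was 0.14, with 5 of 6 above 0. Among them BBS2, a gene of the primary cilium, was at 13.9 and 10.7 CPM (0.38, 0.02 to 0.74), and HERPUD1, a gene of the endoplasmic reticulum stress response, at 75.3 and 83.7 CPM (-0.15, -0.29 to -0.02). GNAO1, SLC12A3, CETP and NLRC5 were below the minimum.

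Of 36 genes of zinc, copper and iron handling, 25 were tested, and 0 were higher and 0 lower, beside 0.952% and 0.749% of all genes. Their median log2 ratio was 0.03, as over all genes, and that of their summed counts 0.14 (0.13 to 0.15). SLC30A1, the zinc exporter that MTF1 is known to induce, was at 11.9 CPM in MT1G-high and 9.22 CPM in MT1G-negative cells, a log2 ratio of 0.36 (-0.02 to 0.76). SLC39A10, a zinc importer, had the lowest ratio of the list at -0.52 (-0.84 to -0.20). Of 18 tested targets of NRF2, the transcription factor of the oxidative stress response, 0 were higher and 0 lower (median 0.10), which for lists this short is near the share over all genes. HMOX1, the heme oxygenase gene, was at 15.2 and 12.7 CPM, a log2 ratio of 0.26 (-0.08 to 0.60).

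Among the 15 genes with the highest ratios that kept at least 1.5-fold in all 3 computations, 8 were metallothioneins. The transcription factor gene SCX followed at 15.5 and 6.47 CPM (log2 ratio 1.26, 0.85 to 1.68), CGREF1 at 15.5 and 7.27 CPM (1.09) and ATP1B2, a subunit of the sodium pump, at 18.9 and 9.57 CPM (0.98). Their DMSO levels were 0.495, 0.128 and 0 CPM. KRTAP19-5, a hair keratin-associated protein gene, was at 12.9 and 6.82 CPM (0.92), but at 9.06 CPM in cells with 10 or more MT1G counts, which gave 0.41. Its counts came from only 66 cells of both groups, and 1 cell held 12.4% of them. After thinning, 2.47% of MT1G-high and 1.8% of MT1G-negative cells had a KRTAP19-5 count. The meiosis gene MEIOB was at 14.2 and 7.8 CPM. AADAT, an aminotransferase gene of the kynurenine pathway, was at 17.7 and 9.66 CPM, and DVL1, a Wnt signal carrier, at 23.8 and 13 CPM. These last 2 were present with DMSO at 12 and 29.7 CPM. In all 7 the cells with 1 to 4 MT1G counts lay between the other groups. From 5 to 9 MT1G counts to 10 or more, SCX rose (13.4 to 17.5 CPM), as did ATP1B2 (15.8 to 22.1). CGREF1 (18.4 to 12.4), MEIOB (15.4 to 13), DVL1 (24.8 to 22.9) and AADAT (18.1 to 17.3) did not, like KRTAP19-5. SCX (159 and 73 counts) and CGREF1 (159 and 82) reached 200 counts only through the MT1G-high cells. So did KRTAP19-5 (133 and 77) and MEIOB (146 and 88).

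Past 1.5-fold were also some genes of higher level outside the family. CCK, the gene of the gut peptide cholecystokinin, was at 381 CPM in MT1G-high, 277 in the middle, 245 in MT1G-negative and 0.016 in HCT116 DMSO cells, a log2 ratio of 0.64 (0.57 to 0.71). After thinning, 58.2%, 52.7% and 42.7% of cells had a CCK count. The surface glycoprotein gene THY1 was at 131 and 84.4 CPM (0.64, 0.52 to 0.76), and TNFRSF10B, a death receptor gene among p53 targets, at 63.6 and 41.4 CPM (0.62, 0.45 to 0.79). Of 16 tested cancer-testis genes none was past 1.5-fold, with 0.952% of all genes higher. Their median was 0.22, but 0.03 for groups set in thinned cells and 0.07 for MT1G of 10 or more, with SYCP3 at 0.55 and PAGE2 at 0.53.

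The genes lower in MT1G-high cells included stress and early response genes. GADD45B, which is induced by stress and growth arrest signals, was at 59.8 CPM (55.2 to 64.7) in MT1G-high, 82.8 in the middle, 115 CPM (109 to 122) in MT1G-negative and 33.2 in HCT116 DMSO cells. Its log2 ratio was -0.95 (-1.09 to -0.81), -0.75 in thinned cells and -0.78 with weighting by depth. DDIT4, an inhibitor of mTOR signalling, was at 21.6, 26.6 and 43.6 CPM in the same order and at 102 with DMSO, a log2 ratio of -1.01 (-1.25 to -0.78). HSPA1B, an inducible HSP70 gene, was at 49.8, 61.1 and 93.5 CPM, with 88.8 in DMSO cells, a log2 ratio of -0.91 (-1.06 to -0.76). In all 3 genes the middle cells lay between the others. From 5 to 9 MT1G counts to 10 or more, GADD45B went from 58.2 to 61.5 CPM and DDIT4 from 19.6 to 23.6. HSPA1B went from 53.6 to 45.9 CPM. With groups set in thinned cells the ratios of GADD45B, DDIT4 and HSPA1B were -0.72, -0.60 and -0.65. In cells of 5000 to 7500 counts all 3 ratios were smaller. GADD45B was at -0.45 (-0.80 to -0.12), DDIT4 at -0.13 (-0.65 to 0.36) and HSPA1B at -0.28 (-0.67 to 0.10). At 10000 to 15000 counts GADD45B was at -0.58 (-0.81 to -0.35), and above 20000 counts HSPA1B was at -0.05 (-0.87 to 0.81). GADD45G was at 8.75 and 14.8 CPM (-0.76). With 90 and 167 counts, GADD45G reached the minimum count only through the MT1G-negative cells. The minimum itself thus favours a lower ratio for this gene.

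The lists around these genes moved less, but most of their members lay below 0. Above 0 were 2 of 15 tested ATF4 stress, 3 of 12 heat shock and 2 of 12 AP-1 genes, beside 4423 of 7878 genes. The log2 ratios of the list sums were -0.23, -0.12 and -0.18 in this order. Of 15 tested ATF4 stress genes DDIT4 alone was lower (1 of 15, with 0.749% of all genes lower), and the median was -0.16. ATF3 was at -0.39 (-0.49 to -0.28) and CEBPB at 0.41. Of 12 heat shock genes, HSPA1B and HSPA1A (-0.66) were lower, again beside 0.749% of all genes. HSPA1A was at -0.57 in thinned cells and -0.28 with weighting by depth, both inside 1.5-fold. HSPA1A and HSPA1B are near-identical copies, so their split is uncertain. HSP90AA1 was at 0.01. Of 12 tested AP-1 and immediate early genes, JUN alone was lower (0.749% over all genes) at 149 against 229 CPM (-0.63, -0.72 to -0.53), or -0.51 with weighting by depth, while JUND was at 0.39 (0.20 to 0.59).

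Small nuclear RNAs, the RNA parts of the spliceosome, were the other set among the lower genes. RNU5F-1 was at 4.86 CPM in MT1G-high and 13.4 in MT1G-negative cells (log2 ratio -1.46, -1.95 to -0.99), RNU5E-1 at 5.54 and 15.1 (-1.44) and RNU4ATAC at 13.5 and 26.5 (-0.97). RPPH1, the RNA of ribonuclease P, was at 23.0 and 43.1 CPM (-0.91). After these values were seen, names beginning with RNU and a digit or with RNVU were counted: 14 had 200 counts, 11 of them were lower (0.749% of all genes were) and 0 higher, with a median of -0.97. RNU5F-1 (50 and 151 counts) and RNU5E-1 (57 and 170) reached 200 counts only through the MT1G-negative cells. The minimum itself thus favours lower ratios here. Over all such names, whatever their counts, the log2 ratio of the sums was -0.71 (-0.78 to -0.64). In treated H1299 their median was 0.01 over 7 tested names and the log2 ratio of their sums -0.20. These RNAs carry no poly(A) tail and have near-identical copies, and 1 cell held 48.2% of the counts of RNU5A-1, the lowest of them at -2.10. For RNU5E-1, 1 cell held 19.8%. The MT1G-negative cells also had the higher mitochondrial share given above. In cells of at most 25% mitochondrial counts the ratios were -1.38 for RNU5F-1, -1.38 for RNU5E-1, -1.02 for RNU4ATAC and -0.65 for RPPH1.

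Few members of the remaining lists were past 1.5-fold, as were few of all genes (0.952% higher and 0.749% lower), so that a count of 0 says little of a list. Of 34 S phase and 50 G2/M genes none was past 1.5-fold, with medians of -0.09 (-0.14 with weighting by depth) and 0.02. Among 84 ribosomal protein genes 1 was higher, RPL3L at 0.60 (0.55 in thinned cells), a muscle paralog of RPL3, with a median of 0.01 for the list. Of 7 tested interferon-stimulated genes none was past 1.5-fold, with a median of 0.20 against 0.03 over all genes, IFI6 at 0.36 (0.17 to 0.55), IRF7 at 0.28 and ISG15 at 0.05. Of 13 tested p53 targets only TNFRSF10B was higher, and CDKN1A, the cell cycle inhibitor p21, was at 97.5 and 114 CPM (-0.23, -0.35 to -0.11). Of 8 tested DNA methyltransferase and histone deacetylase genes none was past 1.5-fold, with a median of 0.04. In the epithelial list CRB3 was higher (0.69), or 0.50 with weighting by depth. Of 8 tested genes of the mesenchymal list, with a median of -0.22 (-0.01 in thinned cells), THY1 was higher and SNAI1 lower (-0.61, or -0.49 with weighting by depth). In the hypoxia and glycolysis list ADM was lower at -0.59, or -0.47 with weighting by depth and -0.41 in thinned cells. Of the 14 goblet cell genes none had 200 counts. Of 3 tested enteroendocrine genes CCK was higher, and their median was 0.23, or 0.07 in thinned cells. None was past 1.5-fold among 3 absorptive colon genes (median 0.04), 6 stem cell and Wnt genes (0.10), 9 genes of the response to histone deacetylase inhibitors (0.03), 13 apoptosis genes (0.00), 6 S100 genes (0.13) and 10 mitochondrially encoded genes (-0.03).

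**Figure D4:**
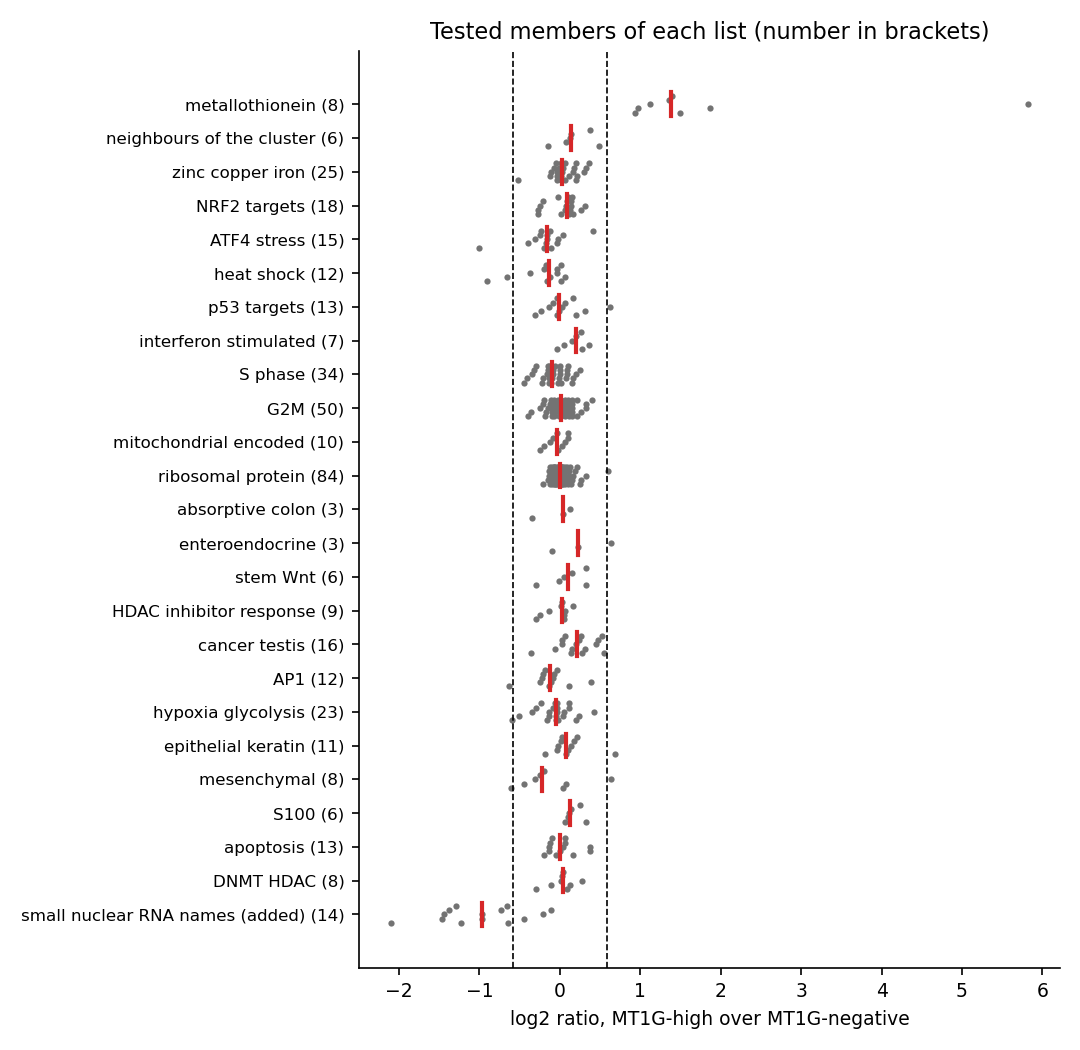
Log2 ratio of MT1G-high over MT1G-negative cells (x axis) for every tested member (grey points) of each gene list (y axis, number of tested members in brackets), with the median in red and 1.5-fold as dashed lines. Metallothioneins have a median of 1.38 and small nuclear RNA names, a list added after their values were seen, one of -0.97.

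The pooled share of TE RNA was close in both groups. TE counts were 5.40% (5.39 to 5.41) of counts in MT1G-high, 5.51% in the middle and 5.44% (5.43 to 5.45) in MT1G-negative cells, against 0.319% in HCT116 DMSO. Some families abundant here, AluY and AluSz among them, had 0 counts in HCT116 DMSO, where AluSx had 12934. Whether such families were left out for that library was not tested, so the DMSO share may be too low. The log2 ratio of the TE share between the 2 groups, without MT1G, was -0.01, and 0.08 with weighting by depth. The median share per cell was 4.74% in MT1G-high and 4.3% in MT1G-negative cells, and the pooled share was higher in MT1G-high cells in 4 of the 5 depth strata. Of 129 tested families 0 (0%) were higher and 6 (4.65%) lower, with a median of -0.18. LTR12C, a long terminal repeat of an endogenous retrovirus, was at 26510 CPM in MT1G-high, 26424 in the middle and 24711 in MT1G-negative cells, a log2 ratio of 0.10 (0.09 to 0.11). Repeats of another retrovirus-like group, THE1, were at 5163 and 4282 CPM (0.27), and the related MST names at 704 and 564 (0.32). AluS names, short elements that depend on other elements to move, went the other way at 9895 and 12078 CPM (-0.29, -0.30 to -0.28), and AluY names at 2369 and 3010 (-0.35). These 4 differences kept their sign in thinned cells and with weighting by depth, and all lay within 1.5-fold. For the L1 names, long elements that encode their own reverse transcriptase, the ratio was -0.20 (-0.24 to -0.16) but 0.05 with weighting by depth. Of single families LTR8B was at 8.27 and 19 CPM (log2 ratio -1.20, -1.58 to -0.83) and L1P4_orf2 at 8.36 and 14.2 CPM (-0.76). LTR8B (85 and 214 counts) and L1P4_orf2 (86 and 160) reached the minimum count only through the MT1G-negative cells. For both families the minimum itself thus favours a lower ratio. LTR7Y was at 11.5 and 19.6 CPM (-0.77), with 20.3 in the middle cells and -0.36 for MT1G of 3 or more.

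The same rule was applied to the treated H1299 library, which played no part in choosing the HCT116 cells. There 91 of 3690 cells (2.47%) were MT1G-high and 3120 MT1G-negative, with a median depth of 20112 and 15509 counts and 1818173 and 51511858 counts in all. With so few MT1G-high cells the ratios are less exact, and they were neither thinned nor weighted by depth. Over all genes, 514 (4.37%) of 11755 genes were higher and 950 (8.08%) lower. MT2A was at 4811 and 3186 CPM, a log2 ratio of 0.59 (0.56 to 0.63), and MT1E at 598 and 251 CPM (1.25, 1.16 to 1.34). MT1A was at 1.90 (1.48 to 2.29), MT1F at 1.73 and the joined MT1X name at 1.14. The log2 ratio of the metallothionein sum, less uncertain than single members, was 0.69 in H1299 against 1.21 in HCT116. MT1H had 148 counts in the 91 MT1G-high and 18 in the 3120 MT1G-negative cells, a log2 ratio of 7.86 (7.15 to 8.66). In H1299 MT1H was thus below the minimum of 200 counts, with most of its counts in the group where it was higher. THY1 was at 0.95 (0.56 to 1.32) and ATP1B2 at 1.00 (0.65 to 1.33). Intervals included 0 for CGREF1 at 0.34 (-0.36 to 0.97) and AADAT at 0.32 (-0.65 to 1.15). So did those of DVL1 at 0.40 (-0.01 to 0.79) and MEIOB at 0.14 (-0.27 to 0.51). GADD45B was at -0.17 (-0.58 to 0.21), DDIT4 at -0.59 (-1.51 to 0.20) and HSPA1B at -0.33 (-0.79 to 0.11), intervals that include 0. The TE share was 3.89% and 3.02% in H1299, a log2 ratio of 0.37 against -0.01 in HCT116. AluS was at 0.32 and AluY at 0.38 in H1299, opposite in sign to HCT116. Whether the lines differ was not tested, as each is 1 library. Of the 75 genes higher in HCT116, 61 had at least 200 counts in H1299, of which 42 were on the same side of 0 and 15 past 1.5-fold. Of the 59 lower genes, 50 had them, with 33 on the same side and 10 past 1.5-fold. The 61 higher genes include 7 metallothioneins, with a median log2 ratio of 1.04 in H1299. Over the 7665 of all tested genes that had as many counts, the median there was -0.02. Either side of 0 is thus common.

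**Figure D5:**
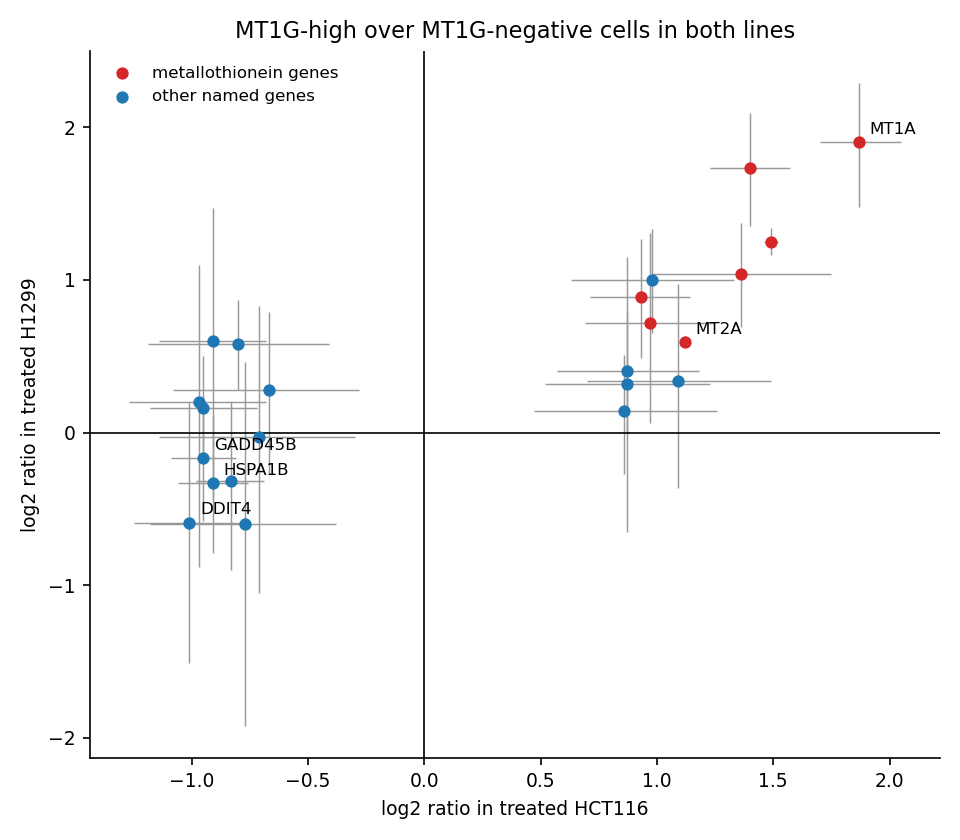
Log2 ratio of MT1G-high over MT1G-negative cells in treated HCT116 (x axis) and treated H1299 (y axis). Drawn are the 23 genes, of the 15 highest and 15 lowest of the naming rule, with at least 200 counts in H1299. Bars are exact conditional 95% intervals. All 12 that were higher in HCT116 lie above 0 in H1299, 7 of them metallothioneins, and 6 of the 11 that were lower lie below 0. Over all tested genes the median in H1299 was -0.02.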

How the data were processed

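Gene counts and TE counts came as separate tables that the authors deposited, with unnormalised whole numbers per feature and cell. Per the submitters' processing notes CASAVA and STAR were used with GRCh38 and hg38, without a stated role. No source used here gives the counting tool, the annotation, the cell filter or whether counts are molecules. Cell names give the library. Features were summed by the text before the first bar, to 43296 gene names and 655 TE families. The 2419 names that join genes hold counts in the totals but were not compared as genes, apart from the joined MT1X name and an alternative that adds them.

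Ratios are those of summed counts over totals without MT1G with exact intervals (Python 3.11.15, numpy 2.4.6, scipy 1.17.1), and the computation was tested on simulated data. Doublets were not called. Results were recomputed without the deepest 5% of cells. Other alternatives changed the MT1G limit, the depth treatment, the denominator, the mitochondrial limit, the fold and the minimum count. Genes were named as the 15 highest and 15 lowest (8 each for TE families) with at least 200 counts, no cell above 20% of them and at least 1.5-fold in all 3 computations, and from the lists. Members, lists and rules were chosen with earlier results of these data known. Cells under 5000 counts were not analysed here. Results for some items are not reported here.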

Additional observations from a re-analysis of the deposited data

Results flagged for a closer look

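The genes and families named as highest or lowest were compared with treated H1299 where they had at least 200 counts there. Of these, 2 were past 1.5-fold in the opposite direction in H1299. RPPH1, lower in MT1G-high HCT116 cells at -0.91, had a log2 ratio of 0.60 in H1299 from 11 counts in MT1G-high cells, and LTR7Y, at -0.77 in HCT116, had 1.39 from 27 counts. Each line is 1 library and the difference was not tested.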

How the results depend on the processing

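The metallothionein sum kept its direction and stayed past 1.5-fold under the alternatives listed next, though not within the cells above 20000 counts (0.53), with log2 ratios of 1.47 for MT1G of 10 or more (411 cells), 1.05 for 3 or more (1245 cells), 1.18 for groups set in thinned cells, 1.26 in thinned cells, 1.11 with weighting by depth, 1.16 without mitochondrial and ribosomal protein genes in the total, 1.15 in cells of at most 25% mitochondrial counts, 1.25 without the 5% deepest cells and 1.24 with joined names. The TE share ratio, -0.01, was 0.01, 0.00, 0.03, -0.02, 0.08, -0.06 and 0.03 under the first 7 of these, so its sign is not settled. Genes higher, 75, numbered 45 in thinned cells, 121 with weighting by depth, 8 at 2-fold, 467 with at least 50 counts and 13 with at least 1000. Genes lower, 59, numbered 30 in thinned cells, 7 at 2-fold, 301 with at least 50 counts and 8 with at least 1000. TE families higher, 0, numbered 1 for either MT1G limit, for groups set in thinned cells and with weighting by depth, and 7 with at least 50 counts. TE families lower, 6, numbered 2 at 2-fold, 0 with at least 1000 counts, 27 with at least 50, 12 with the other total and 3 for groups set in thinned cells. Of the values of the genes and families named as highest or lowest under these alternatives, 228 lay inside the counting interval of the reported value and 36 outside it. None changed sign. Some came inside 1.5-fold or to its edge: KRTAP19-5 (0.41) and SH2D4A (-0.56) for MT1G of 10 or more, HIST1H3H (-0.51) and LTR7Y (-0.36) for 3 or more, and, for groups set in thinned cells, MEIOB (0.53), HIST1H3H (-0.55), TBC1D10A (-0.44), SH2D4A (-0.48), RPPH1, GADD45G and L1P4_orf2 (-0.58 each). L1P4_orf2 was also at -0.58 for MT1G of 10 or more. No paired analysis was possible because each group is part of 1 library. With 1 library the spread between cultures is unknown, and low counts limit most single genes.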

Other observations

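Histone cluster genes, counted after their values were seen, leaned to the MT1G-negative cells, with 7 of 31 tested lower (0.749% of all genes were), 0 higher and a median log2 ratio of -0.17, or -0.10 with weighting by depth. In treated H1299 their median was -0.12 over 44 tested genes. The log2 ratio of their sums was -0.20 in HCT116 and 0.04 in H1299. HIST1H1E, a linker histone gene, was at 139.9 CPM in MT1G-high, 238 in the middle and 219.9 in MT1G-negative cells (-0.65, -0.75 to -0.56; -0.58 in thinned cells, inside 1.5-fold), and at -0.66 (-0.93 to -0.40) in H1299. HIST1H2AM was at -0.66 in HCT116 (-0.49 with weighting by depth) and 0.98 in H1299. The median of the 34 tested S phase genes was -0.09, or -0.14 with weighting by depth.

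The gastrin gene GAST, like CCK a gut peptide gene near 0 with DMSO (0.0639 CPM), was at 76.7 CPM in MT1G-high, 64.1 in the middle and 49.9 in MT1G-negative cells, a log2 ratio of 0.62 (0.46 to 0.78), and 0.96 with weighting by depth. TCN2, which encodes the vitamin B12 carrier transcobalamin, was at 83.8, 66.4 and 54.9 CPM (0.61). MSX1, a homeobox gene, was at 226, 199.8 and 147 CPM (0.62, 0.53 to 0.71). These genes were chosen after their values were seen, among genes with at least 1000 counts.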
